A study of Mus musculus with 2 samples.

Results

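DNA damage signalling and repair genes were examined in a mouse glioblastoma stem cell line in which Gli2, a transcriptional effector of Hedgehog signalling, had been suppressed. The 56 genes were chosen by name, as the damage signalling kinases and members of the main repair pathways, and their probes were found through RefSeq accessions, out of 23780 genes named on the array. Cells of 1 line, grown as neurospheres and derived from glioblastomas that a Sleeping Beauty transposon had induced in mice, received a lentivirus with a non-target control shRNA in the first group and with a Gli2 shRNA in the other. Stably transduced cells were used, and whether they descend from 1 clone, the age of the culture and the sequence of the shRNA are not given in the sources used here. Both groups thus share the tumour of origin, the culture medium with EGF and bFGF, and lentiviral transduction. Each group holds 1 one-colour Agilent array, so there is no replicate check, no test and no p-value for any difference given here.

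Cells meet broken, mispaired and chemically altered DNA with separate pathways. The kinases Atm and Atr sense breaks and stalled replication forks and pass the signal to Chek1 and Chek2, which hold the cell cycle. Breaks are mended by homologous recombination from a sister chromatid or by end joining, crosslinks through the Fanconi anaemia pathway, replication errors by mismatch repair, small base lesions by base excision repair and bulky lesions by nucleotide excision repair. Mgmt takes alkyl groups directly off guanine, and in human glioblastoma its silencing is associated with response to the alkylating drug temozolomide. Many of the recombination and mismatch repair genes are transcribed mostly in dividing cells, through E2F factors.

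A signal is the background-subtracted brightness of a probe. The 75th percentile of the probes was a signal of 329 for the control and 399 for Gli2 shRNA, 1.21 times as high, so a gene with the same scaled level has a higher signal with the Gli2 shRNA. Differences are the log2 signal scaled to that percentile, Gli2 shRNA minus control, and the error is the scanner software's own error of both spots, which does not cover the spread between cultures. A gene was measured on an array where its brightest probe was well above background, and 14559 genes were measured on both arrays. The Gli2 probe (RefSeq NM_001081125, chromosome 1) read 98.1 with the control shRNA and 57.9 with the Gli2 shRNA, a difference of -1.04 ± 0.22, or 48.7% of the control level. This was past 2-fold as scaled here, and -0.90 with the arrays scaled to their medians, -0.97 after cyclic loess and -0.64 after normexp background correction. Pairs of signals are given from here on with the control first. All 8 markers of neural stem and glioma cells were well above background on both arrays, among them Sox2 (5594 and 6516). Of 6 fibroblast and pericyte markers 1 was well above background on each array, with summed signals of 42.2 and 47.0. Of 7 markers of microglia and macrophages 5 were well above background with the control shRNA and 4 with the Gli2 shRNA, with summed signals of 5515 and 6316, of which Itgam made up most, with 4694 and 5413. Csf1r (389.9 and 432.5), Cd68 (343.9 and 398.3) and Tyrobp (63.5 and 54.3) were also measured on both arrays, Aif1 on the control array only, and Ptprc and Cx3cr1 on neither. Of 5 endothelial markers 3 were well above background on both arrays, with summed signals of 582.8 and 1046, while Cdh5 and Tek were at background. Emcn (462.6 and 933.1) differed by 0.73 and made up most of the sums, Kdr (72.5 and 62.8) differed by -0.48 and Pecam1 by -0.04. Of 5 neuronal markers 4 were well above background on both arrays, with summed signals of 3955 and 4653. The part of other cell types in the differences below was not tested.

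Most of the repair genes were at nearly the same level in both arrays. All 56 genes were measured on both arrays. Xrcc2, Xrcc3 and Msh6 were lower by more than 1.5-fold, a share of 5.36% that is near the 6.55% of all genes, and with the arrays scaled to their medians Xrcc2 alone was. No repair gene was higher by that much. Xpa and Mgmt had the highest differences, at 0.37 and 0.32.

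Past 2-fold, 1 of 56 repair genes was lower, against 1.79% of all genes measured on both arrays, and 0 were higher, against 1.84%. Past 1.5-fold, 3 repair genes were lower (5.36%), against 6.55% of all genes, and 0 were higher, against 6.0%. In either direction that is 5.36%, against 12.5% of all genes, and against 9.51% of the 12329 genes with a signal of at least 50 on both arrays, a limit that all 56 repair genes met. The share of repair genes lower past 1.5-fold was thus near the background, and the counts say nothing particular about repair genes in that direction. The median difference of the repair genes was -0.01, beside 0.00 for all genes, and 30 of 56 (53.6%) lay below 0, against 49.7% of all genes. With the arrays scaled to their medians the repair genes' median turned to 0.12 and that of all genes to 0.14, so the sign of a small difference depends on the scaling.

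The spread of the repair genes was narrow. Their differences had an SD of 0.27, beside 0.42 for all genes and 0.37 for the genes with a signal of at least 50. Within 0.25 of 0 lay 46 of 56 repair genes (82.1%), against 59.6% of all genes and 63.2% of those with a signal of at least 50. The further repair genes and the S phase genes described below had SDs of 0.26 and 0.19. Of these genes 76.7% and 83.8% lay within 0.25 of 0, so a narrow spread was not particular to the 56 genes. The difference was larger than the software error for 18 repair genes (32.1%), against 46.2% of all genes, in either direction. As scaled here 12 of the 18 were lower and 6 higher. That split depends on the scaling and has no share of all genes by direction beside it, so no lean is read from it.

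**Figure D1:**
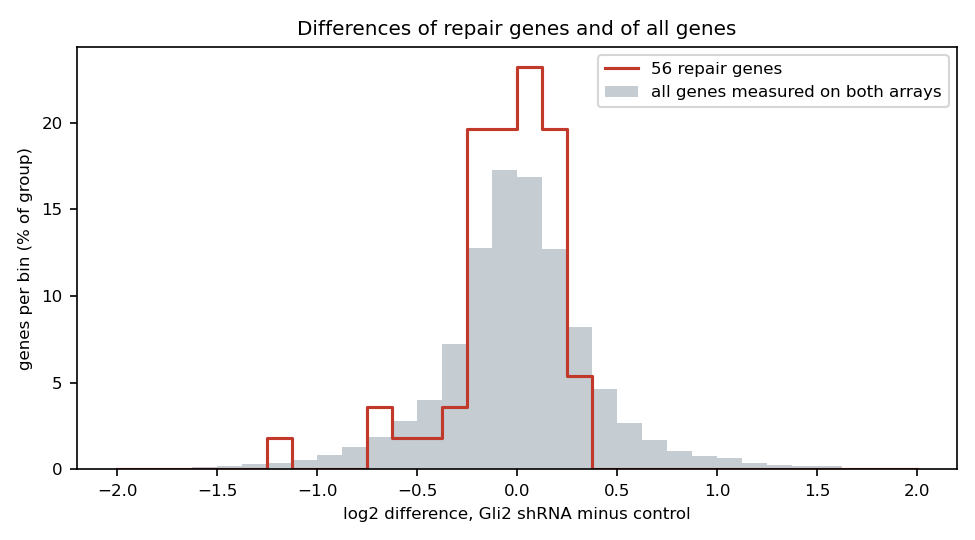
Histogram of log2 differences, Gli2 shRNA minus control, for all 14559 genes measured on both arrays and for the 56 repair genes, each as percent of its genes. The repair genes crowd nearer to 0, with 46 of 56 within 0.25, and 42 of all genes lie beyond the plotted range.

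The kinases that carry the damage signal differed little. Atm, the kinase that responds to double-strand breaks, had signals of 296.9 and 359.7, a difference of 0.00 ± 0.20. Atr, which responds to single-stranded DNA at stalled forks, had 1730 and 2292, a difference of 0.13 ± 0.20. Both lay within the software error. Chek1, the checkpoint kinase downstream of Atr, gave 553.8 and 547.1, a difference of -0.29 ± 0.20, and its other probe gave -0.30. Chek2, the kinase downstream of Atm, gave 206.2 and 216.5, a difference of -0.21 ± 0.21. Chek1 thus lay below 0 on both of its probes, but at -0.16, within its error, with the arrays scaled to their medians. Chek2 lay below 0 by about the size of its error, and at -0.07 with the arrays scaled to their medians. The sign of Atr was not settled, as its difference was within the error. That of Atm was not settled either, since its other probe gave 0.11. The count of kinases below 0 was 3 of 4 or 2 of 4 depending on the scaling, the normalization and the probe rule.

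**Figure D2:**
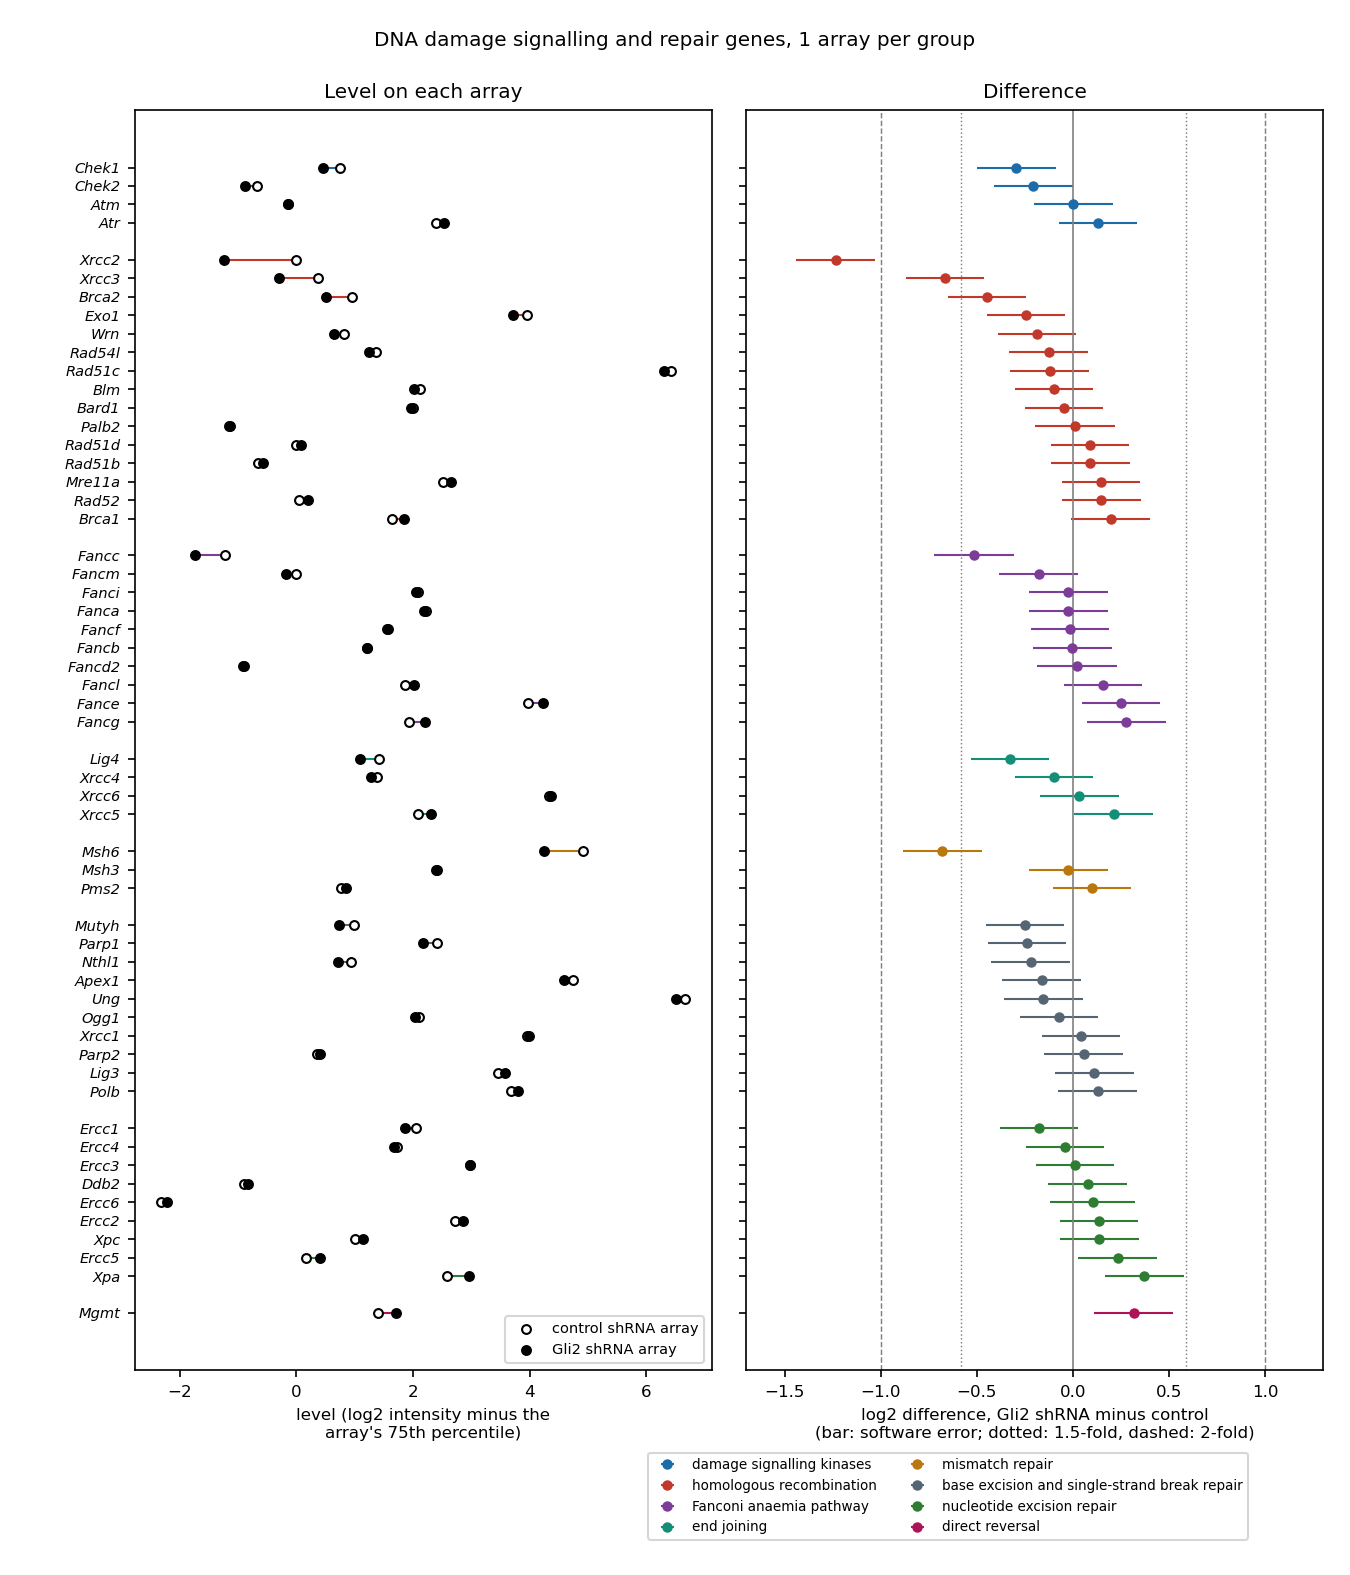
Log2 difference, Gli2 shRNA minus control, of each of the 56 repair genes, by pathway, with the scanner software's error as bars. Xrcc2, Xrcc3 and Msh6 lie past 1.5-fold on the lower side, and nucleotide excision repair holds 7 of its 9 genes above 0.

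Homologous recombination held the repair gene with the lowest difference. Xrcc2 (NM_020570, chromosome 5), a factor that acts at the strand exchange step of recombination, had signals of 327.4 and 168.6. Its difference was -1.23 ± 0.21, 2.35-fold lower, and -0.96 after normexp background correction, under 2-fold. Xrcc3 (NM_028875, chromosome 12), a factor of the same step, had 425.9 and 325.2, a difference of -0.67 ± 0.20 or 1.59-fold lower, and -0.53, under 1.5-fold, with the arrays scaled to their medians. Each of these genes rests on 1 probe. Rad51b, Rad51c and Rad51d, which belong to the same protein family as Xrcc2 and Xrcc3, stayed closer to 0. Rad51b had 208.0 and 268.0, a difference of 0.09, and Rad51d had 328.6 and 423.2, also 0.09. Rad51c had 28290 and 31490 on its brightest probe, a difference of -0.12. Its other probe read only 36.79 and 38.25 and gave -0.22, so the signal of Rad51c depends on the probe.

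Brca2 (NM_009765, chromosome 5), a tumour suppressor needed for recombination at resected ends, had signals of 636.4 and 565.3, a difference of -0.45 ± 0.20, or 1.36-fold lower. Its other probes gave -0.37 and -0.32, so its 3 probes had the same sign. Brca1, the ubiquitin ligase subunit that promotes resection, had 1028 and 1426 on its brightest probe, a difference of 0.19 ± 0.20. Its other probe, with 148.4 and 150.3, gave -0.26, and the mean of both was -0.03, so the array gave no settled sign for Brca1. Bard1, the partner of Brca1, differed by -0.05, and Palb2, which joins Brca1 to Brca2, by 0.01.

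The remaining recombination genes lay within 0.25 of 0. Rad54l, a motor protein of recombination, differed by -0.13, and Blm, a RecQ helicase, by -0.10. Exo1, an exonuclease that resects ends and also serves mismatch repair, had 5114 and 5232, a difference of -0.24 ± 0.20. Mre11a, the nuclease that starts resection, had 1870 and 2505, a difference of 0.14. Rad52, which anneals single strands, differed by 0.15, and its other probe gave -0.32. Wrn, the helicase lost in Werner syndrome, differed by -0.19, and its other probes gave -0.03, 0.06 and -0.62, of which the last rests on low signals of 49.9 and 39.4. Over the 15 recombination genes the median was -0.10, with 9 below 0, and it turned to 0.04 with the arrays scaled to their medians.

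The Fanconi anaemia genes showed no common direction. Fancc, a subunit of the core complex that attaches ubiquitin to Fancd2 and Fanci, was the lowest, with signals of 141.3 and 119.8 and a difference of -0.52 ± 0.21, 1.43-fold lower, and its other probe gave -0.45. Fancg, another core subunit, was the highest, with 1256 and 1845 and a difference of 0.28 ± 0.20, while its dimmer probes gave 0.22 and -0.06. Fance, which links the core complex to Fancd2, had 5188 and 7465, a difference of 0.25 ± 0.20. Subunits of the same complex thus lay on both sides of 0. Fancd2 itself had 174.6 and 214.5, a difference of 0.02 ± 0.21, and its partner Fanci differed by -0.02. Fancl, the ubiquitin ligase of the complex, differed by 0.16 and Fancm, the translocase that brings the complex to DNA, by -0.18. Fanca, Fancb and Fancf each differed by less than 0.03 in size. The median of the 10 genes was -0.01, and 0.12 with the arrays scaled to their medians.

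In end joining, both Ku subunits had differences above 0 and both ligation factors below. Xrcc5 (Ku80) had signals of 1404 and 1969, a difference of 0.21 ± 0.20. Xrcc6 (Ku70) had 6638 and 8231, a difference of 0.03 ± 0.20. Lig4, the ligase that seals the ends, had 878.8 and 847.9, a difference of -0.33 ± 0.20, and its other probe gave -0.29. Xrcc4, which holds Lig4, had 854.3 and 966.1, a difference of -0.10. With the arrays scaled to their medians Xrcc4 turned above 0, and 1 of the 4 genes, Lig4, remained below 0.

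Mismatch repair was represented by 3 genes that differed from each other. Msh6 (NM_010830, chromosome 17), a subunit of the complex that reads base mismatches, had signals of 9968 and 7542, a difference of -0.68 ± 0.20, or 1.60-fold lower, on its 1 probe. With the arrays scaled to their medians it was -0.54, under 1.5-fold. Msh3, a subunit of the complex that reads insertion and deletion loops, had 1757 and 2094 on its brightest probe, a difference of -0.02 ± 0.20. Its other probes gave -0.61, -0.29 and 0.22, so the Msh3 value depends on the probe. Pms2, which nicks the new strand, had 556.5 and 721.1, a difference of 0.10, and 0.49 on its other probe.

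Base excision and single-strand break repair was the most even pathway in range, with all 10 genes within 0.25 of 0. Parp1, which marks strand breaks with poly(ADP-ribose), had signals of 1742 and 1786, a difference of -0.24 ± 0.20, while Parp2 differed by 0.06. Among the glycosylases that remove damaged bases, Ung (33500 and 36470) differed by -0.15, Ogg1 by -0.07 and Nthl1 by -0.22. Mutyh, the glycosylase that removes adenine opposite oxidised guanine, was the lowest, with 653.2 and 665.8 and a difference of -0.25 ± 0.20. Its dimmer probes gave -0.48 and -0.82, and the mean over its 3 probes was -0.52. All 4 of 4 glycosylases on the list lay below 0, against 49.7% of all genes, but Ung and Ogg1 lay within the software error. With the arrays scaled to their medians Ogg1 turned above 0. Glycosylases outside the list lay on both sides, with Neil3 (0.39), Neil1 (0.125) and Tdg (0.03) above 0. Mpg (-0.35), Smug1 (-0.32), Neil2 (-0.20) and Mbd4 (-0.19) lay below. The enzymes that follow had differences on either side of 0. Apex1, the nuclease that cuts at the abasic site, had 8842 and 9560, a difference of -0.16. Polb, the polymerase that fills the gap, was the highest of the pathway, with 4208 and 5572 and a difference of 0.13 ± 0.20. Lig3 and Xrcc1, which seal the nick together, differed by 0.11 and 0.04.

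Nucleotide excision repair was the pathway with most genes above 0. Of its 9 genes 7 had differences above 0 and 2 (22.2%) below, against 49.7% of all genes. The median was 0.10, and it stayed above 0 under every scaling and normalization run, between 0.06 and 0.24. The 12 further factors of this pathway did not share this as scaled here, with a median of -0.02 and 7 below 0. With the arrays scaled to their medians their median was 0.11 and 1 lay below 0, against 31.2% of all genes. Xpa (NM_011728, chromosome 4), which verifies the lesion and gathers the repair complex, was the highest of all 56 genes, with signals of 1982 and 3105 and a difference of 0.37 ± 0.20, or 1.29-fold, and its other probe gave 0.43. Ercc5, the nuclease that cuts on the 3′ side of the lesion, had 369.1 and 525.7, a difference of 0.23 ± 0.20. Xpc, which finds the distortion in DNA, had 662.4 and 882.9, a difference of 0.14 ± 0.20, and Ddb2, which finds ultraviolet lesions, differed by 0.07. Xpa and Ercc5 alone of the 9 lay above 0 by more than the software error. Ercc2 and Ercc3, the helicases of the transcription factor TFIIH, differed by 0.13 and 0.01, and Ercc6, which acts where RNA polymerase stalls, by 0.10 ± 0.22. Ercc1 and Ercc4, which form the nuclease on the 5′ side, differed by -0.18 and -0.04. Mgmt (NM_008598, chromosome 7), on its 1 probe, had 867.9 and 1308, a difference of 0.32 ± 0.20, or 1.24-fold higher.

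**Figure D3:**
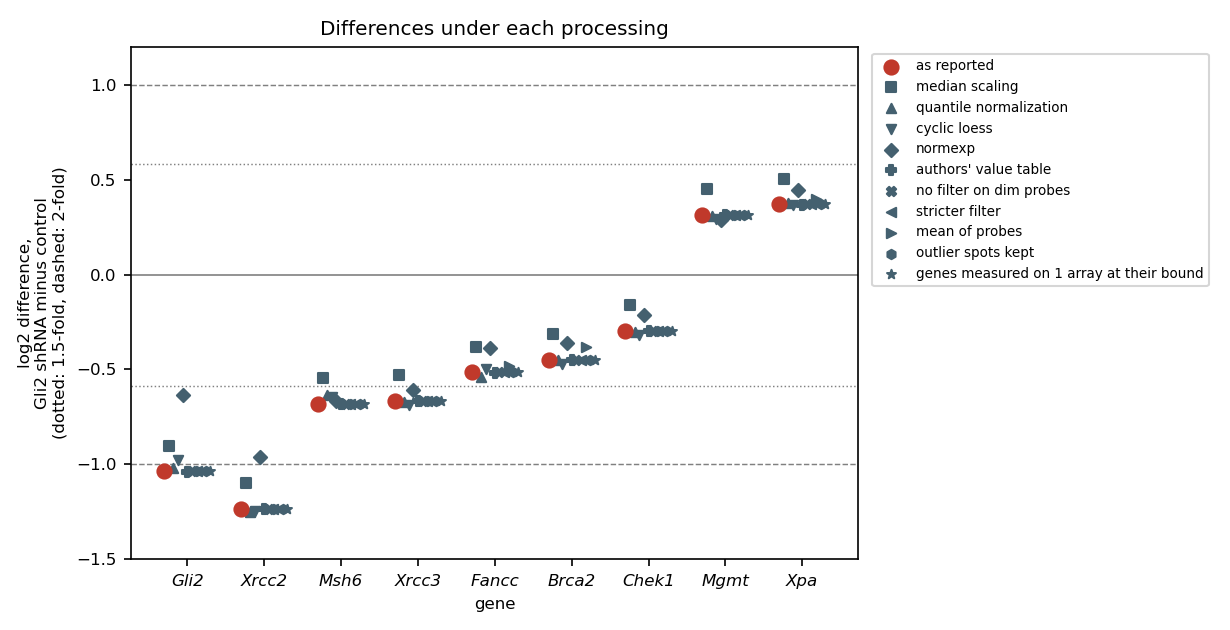
Log2 difference, Gli2 shRNA minus control, of Gli2, Xrcc2, Msh6, Xrcc3, Fancc, Brca2, Chek1, Mgmt and Xpa under each scaling, normalization, filter and probe rule. Xrcc2 is the lowest of these genes under each, and Mgmt and Xpa stay above 0 throughout.

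Several probes gave a check within each gene. Of 100 probes for the repair genes 95 were well above background on both arrays and 5 on neither. Of the 30 repair genes with several such probes, 21 (70.0%) had all probes on the same side of 0, against 69.5% of the 5415 such genes on the array, and the median range between probes of a gene was 0.13, beside 0.16. The range was over 0.5 for 3 repair genes, Msh3, Wrn and Mutyh, and in Msh3 and Wrn the probes differed in sign. Chek1, Brca2, Fancc, Lig4 and Xpa had all of their probes on the same side. The other 26 repair genes, Xrcc2, Xrcc3, Msh6 and Mgmt among them, rest on 1 probe.

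**Figure D4:**
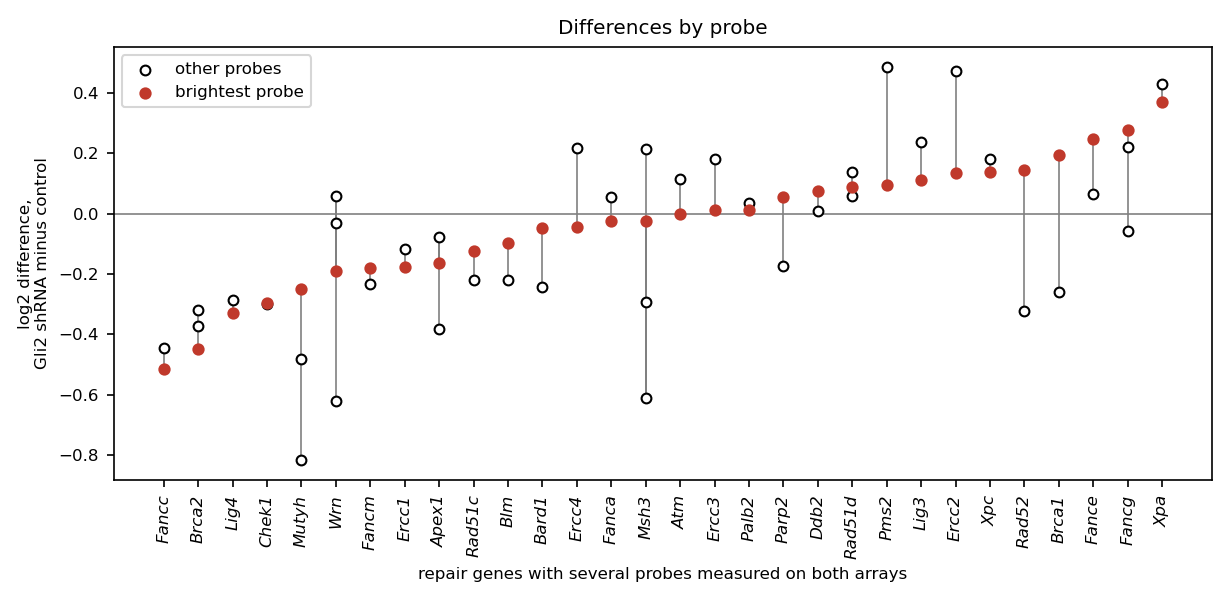
Log2 difference, Gli2 shRNA minus control, of each probe of the repair genes that have several probes well above background on both arrays, 1 point a probe. The probes of Brca2, Fancc and Xpa lie together, while those of Msh3, Wrn and Mutyh span over 0.5.

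The rest of the repair machinery gave a like picture. A list of 87 further repair genes was drawn from general knowledge, but with earlier results of these data known. Of these genes 86 were measured on both arrays, with a median of -0.04, which turned to 0.09 with the arrays scaled to their medians. Past 2-fold there were 0 lower, against 1.79% of all genes, and 0 higher, against 1.84%. Past 1.5-fold 3 were lower (3.49%), against 6.55% of all genes, and 0 higher, against 6.0%. Parg, which removes poly(ADP-ribose), had signals of 2390 and 1486, a difference of -0.96 ± 0.20. H2ax, the histone that Atm phosphorylates around a break, had 5357 and 3505, a difference of -0.89. Hltf, a helicase of damage tolerance, had 3011 and 2174, a difference of -0.75, and -0.11 on its other probe. On the other side, Uvssa, which acts with Ercc6 in transcription-coupled repair, had 742.7 and 1335, a difference of 0.57, and its other probe gave 0.31. Parp3, a relative of Parp1, had 46.1 and 81.4, a difference of 0.55 ± 0.23. Its next probe gave 0.34, and its dimmest, with 15.5 and 6.89, was well above background on the control array only, so the Parp3 value depends on the probe. Neil3, a glycosylase, had 280.5 and 445.2, a difference of 0.39. Fan1, a nuclease of crosslink repair, was well above background on 1 array only, with 16.1 and 15.6. The end joining factors outside the 56 genes had a median of 0.15, with 5 of 6 above 0, and the other base excision factors one of -0.19, with 11 of 16 below 0. The other factors of direct reversal and lesion bypass had a median of -0.24, with 5 of 8 below 0, beside Mgmt at 0.32. Of all genes 49.7% lay below 0. With the arrays scaled to their medians these medians were 0.28, -0.06 and -0.105. Then 9 of 16 base excision and 5 of 8 reversal and bypass factors lay below 0, against 31.2% of all genes. The remaining groups had medians of -0.07 for damage signalling, -0.04 for recombination and 0.00 for crosslink repair, all above 0 with the arrays scaled to their medians, and 0.17 for the 2 mismatch repair genes.

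Because recombination and mismatch repair genes are transcribed with the cell cycle, genes of S phase were set beside them. The lists of S phase genes and p53 targets were likewise chosen with earlier results of these data known. Of 38 S phase genes 37 were measured on both arrays, with a median of -0.12 and none past 1.5-fold. Below 0 lay 28 of 37 (75.7%), against 49.7% of all genes, and with the arrays scaled to their medians 17 of 37, with a median of 0.01, against 31.2% of all genes. The other S phase gene, Ccne2, a cyclin that drives entry into S phase, was well above background on the control array only, with 38.0 and 12.6, and was at least 3.04-fold lower with the Gli2 shRNA. Chaf1b, a subunit of the chromatin assembly factor, was the lowest, with 8289 and 6847 and a difference of -0.55, and E2f1 the highest, with 823.3 and 1317 and a difference of 0.40. Of 20 targets of p53, the factor that Atm and Chek2 activate, 18 were measured on both arrays, with a median of 0.26. Above 0 lay 11 and below 0 lay 7 (38.9%), against 49.7% of all genes. The count below 0 was still 7 of 18 with the arrays scaled to their medians, with a median of 0.40, against 31.2% of all genes. Whether the share of p53 targets below 0 was under or over that of all genes thus depends on the scaling. Past 1.5-fold 4 p53 targets were higher and 1 was lower, against 6.0% and 6.55% of all genes. In either direction that is 27.8%, against 12.5% of all genes. They ran from Eda2r, a death receptor, with 90.3 and 49.4 and a difference of -1.15, to Btg2, an inhibitor of proliferation, with 530.2 and 1455 and a difference of 1.18. The part of the cell cycle or of p53 in the repair genes' values was not tested.

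Promoter sequences were read to see what the repair genes share. A window from 250 bases before to 50 after the start site was found in the RefSeq promoter table (GRCm38.p6) for 47 of the 56 genes, and for Rad51d, Xrcc2, Exo1, Wrn, Fancd2, Polb, Ercc3, Xpc and Ddb2 there was no entry. E2F-like letters (TTTGGCGC, TTTCCCGC, TTTGGCGG or TTTCGCGC, on either strand, where some of these can overlap) were in 10 of 47 windows (21.3%). Of the genes measured on both arrays that have a window, 4.17% held them, and of all 27025 windows 2.42%. For each of the 10 genes a match is shown with its flanking bases, on the strand of the gene, because genes of 6 of the pathways hold these letters. The letters of 1 match are in capitals, and Msh3 holds another match, on the opposite strand, that overlaps the capitals and runs on into the lower-case letters after them.

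The matches with their flanks are at chr9:36726609-36726629 (Chek1), chr5:110839821-110839848 (Chek2), chr5:150522443-150522470 (Brca2), chr1:71103164-71103191 (Bard1), chr11:87404478-87404505 (Rad51c), chr4:43010336-43010363 (Fancg), chr15:82016313-82016340 (Xrcc6), chr13:92355188-92355215 (Msh3), chr17:87975055-87975082 (Msh6) and chr17:24632540-24632567 (Nthl1) of GRCm38.p6, on the minus strand for Chek1, Bard1, Rad51c, Fancg and Msh3 and on the plus strand for the rest.
Chek1: gcaagcaggtTTTGGCGGgaa
Chek2: gggattagccGCGGGAAAccaagacgtc
Brca2: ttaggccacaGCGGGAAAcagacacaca
Bard1: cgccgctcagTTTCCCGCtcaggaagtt
Rad51c: tttccagcgcTTTCGCGCctcttgctct
Fancg: ttcttttcagTTTCCCGCggaaccgtct
Xrcc6: gggggtggaaGCGGGAAAtgcgagtggg
Msh3: tgccgtcaagTTTGGCGCgaaatcgcag
Msh6: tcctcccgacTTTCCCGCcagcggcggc
Nthl1: cgcgcgcgccTTTCGCGCgcaggtcctc

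The match lay in Brca2, Msh6 and Chek1, which had differences of -0.45, -0.68 and -0.29, and equally in Fancg and Xrcc6, at 0.28 and 0.03. Of the 10 repair genes with the letters 8 lay below 0, with a median of -0.16 and a range of -0.68 to 0.28. This fell to 5 of 10 with the arrays scaled to their medians, with a median of -0.03, against 31.2% of all genes below 0 there. Of the 37 without, 18 lay below 0 as scaled here, with a median of 0.00. Over all measured genes with a window, 54.2% of the 483 genes with the letters lay below 0 and 49.0% of the 11089 without, with medians of -0.03 and 0.01. The values for the 37 genes and for all measured genes with a window are given as scaled here only. They are thus no comparison for the 5 of 10. These are descriptions of letters in a window, with no test.

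The letters of the GLI consensus, GACCACCCA on either strand, were in 0 of 47 repair windows, against 0.181% of the windows of measured genes and 0.244% of all windows. No match says only that these letters are not in these windows. CCAAT, the letters read by NF-Y, were in 28 of 47 windows (59.6%), against 39.0% of measured genes and 37.9% of all windows. TTTGAA, the core of the cell cycle homology region, was in 2 of 47 (4.26%), against 12.4% and 18.1%. The upstream stretches of Xrcc3 and Msh6, past 1.5-fold lower, and of Xpa, the highest repair gene, are shown with CCAAT on either strand in capitals. They are at chr12:111813894-111814129 on the minus strand, chr17:87974800-87975049 on the plus strand and chr4:46196345-46196561 on the minus strand of GRCm38.p6.

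Xrcc3: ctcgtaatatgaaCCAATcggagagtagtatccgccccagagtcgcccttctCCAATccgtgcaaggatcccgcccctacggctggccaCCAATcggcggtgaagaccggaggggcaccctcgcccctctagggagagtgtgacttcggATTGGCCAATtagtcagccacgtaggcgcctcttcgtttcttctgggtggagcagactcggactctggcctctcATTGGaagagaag
Msh6: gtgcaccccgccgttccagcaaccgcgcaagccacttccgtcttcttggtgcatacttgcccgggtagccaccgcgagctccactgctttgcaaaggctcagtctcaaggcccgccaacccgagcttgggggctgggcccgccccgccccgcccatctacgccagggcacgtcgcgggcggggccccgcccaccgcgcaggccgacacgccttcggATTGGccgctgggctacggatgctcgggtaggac
Xpa: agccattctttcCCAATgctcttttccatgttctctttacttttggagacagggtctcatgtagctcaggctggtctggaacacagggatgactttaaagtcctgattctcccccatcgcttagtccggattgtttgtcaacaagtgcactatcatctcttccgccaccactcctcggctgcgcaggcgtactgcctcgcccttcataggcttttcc

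Xrcc3 carried 6 such matches, and the stretches of Msh6 and Xpa 1 each.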

How the data were processed

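Total RNA of 2 samples, 1 per group, was turned into Cy3-labelled cRNA for 1-colour Agilent arrays, per the labels' protocols. The deposited files hold, per the file headers, the processed intensity of each spot after background subtraction, its error and flags, from Agilent Feature Extraction 12.1.0.3 (protocol GE1_1200_Jun14, design 074809, grid on mm9). The authors' deposited value table holds log2 values, which were the log2 processed intensity minus a constant of 8.36 (control) or 8.64 (Gli2 shRNA). Its column medians were -3.55 and -3.69.

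Spots marked as outliers were left out (126 and 120), spots of a probe were averaged on the log2 scale, and each array was scaled to the 75th percentile of its 56595 non-control probes. Probes were named by RefSeq accession without version through the GRCm38.p6 gene table (34555 probes, 23780 genes), and a gene took its brightest probe. Lowest signals well above background were 12.8 and 15.2. The number of arrays limits the precision, and over 298 probes with replicate spots the median SD between spots was 0.04 log2. Differences were read by size rules of 2-fold and 1.5-fold. The steps were tested on simulated data.

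Named with signals are Gli2, genes past 1.5-fold, the highest and lowest of each pathway, core subunits, genes whose probes disagree in sign by over 0.5, and the 3 highest and 3 lowest other repair genes. Some further repair genes are given with their signals for completeness. The genes, lists and motifs were chosen with earlier results of these data known. Alternatives were 10 other scalings, normalizations, filters and probe rules; normexp (offset 50) used the median spot signal, in place of the mean that had been planned. Tools were Python 3.11.15, numpy 2.4.6, pandas 2.3.3, matplotlib 3.10.9, R 4.3.3 and limma 3.58.1.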

Additional observations from a re-analysis of the deposited data

How the results depend on the processing

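Of 10 alternatives, scaling to the array median moved most values, as it adds 0.14 to every difference. The repair genes' median then was 0.125, and that of the other repair genes was 0.094. Below 0 lay 17 of 56, against 31.2% of all genes, a share near that background. Past 1.5-fold was 1 of 56, Xrcc2, against 13.6% of all genes in either direction. Relative to the median of all genes the repair genes' median stayed at -0.01 there and ran from -0.06 to 0.05 over all settings. After normexp 0 repair genes were past 2-fold, against 1.15% of all genes. Gli2 was -0.902 under median scaling, -0.975 after cyclic loess and -0.637 after normexp, all under 2-fold. Xrcc2, Xrcc3, Msh6, Parg, H2ax, Hltf, Btg2 and Eda2r kept their sign under each alternative in which they were measured. Hltf was -0.43 as the mean of its probes, under 1.5-fold, and Parp3 was 0.12 after normexp and 0.63 after cyclic loess. Parp3 and Uvssa were past 1.5-fold higher under median scaling, at 0.68 and 0.70. No paired analysis was possible because each group holds 1 array. Differences within the software error of about 0.20 have no settled sign. Those beyond it describe these arrays only, as there is no replicate culture and the error does not cover the choice of scaling.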
